A study of Mus musculus with 6 samples.

Results

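The cytoplasmic intermediate filament genes Bfsp1, Bfsp2, Vim and Nes were followed in the lenses of newborn mice. They were picked by gene symbol, and each matched 1 of the 22298 entries of the deposited expression table, so 4 of 22298 entries are described. RNA was taken from whole ocular lenses at postnatal day 0 of wild-type (WT) mice and of mice labelled Fyco1-/-, all of the labelled strain C57BL/6. Each genotype has 3 libraries, lettered A, B and C (sets of 3 values are given in that order), each made from 10 pooled lenses. Fyco1 encodes an adaptor that carries autophagosomes along microtubules, and how its allele was disrupted, or how many animals gave the lenses, is not given in the sources used here.

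Intermediate filaments are rope-like polymers of coiled-coil proteins that give cells mechanical strength. The lens has a pair of its own: filensin, encoded by Bfsp1, and phakinin, encoded by Bfsp2, which assemble together into the beaded filaments of fibre cells, the elongated and crystallin-filled cells that make up most of the lens. Vimentin, encoded by Vim, forms ordinary filaments in the lens epithelium and in younger fibre cells, and nestin, encoded by Nes, is a very long partner that polymerises only together with proteins such as vimentin and is best known from progenitor cells. Mice that lack phakinin lose the beaded filament, and some inbred mouse strains carry a natural deletion in Bfsp2.

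The 4 genes lie at separate places in the genome (GRCm38). Bfsp1 (ENSMUSG00000027420) is at chr2:143826528-143863173 on the minus strand and Vim (ENSMUSG00000026728) at chr2:13573927-13582826 on the plus strand. Bfsp2 (ENSMUSG00000032556) is at chr9:103424924-103480420 on the minus strand, and Nes (ENSMUSG00000004891) at chr3:87971078-87980451 on the plus strand. Fyco1 lies on chromosome 9 too, 20.3 Mb from Bfsp2. The family is held together by a central rod, whose end is among its most conserved stretches. The 30 bases that encode this end are shown for the members in which it could be placed, because they show how alike and how different the genes are. They are read 5′ to 3′ on the coding strand from GENCODE transcripts of release M21 (GRCm38), with a base in capitals where it equals the base of Vim:

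Vim (chr2:13580204-13580233): ACCTACAGGAAGCTGCTGGAAGGCGAGGAG
Nes (chr3:87973109-87974823, across a splice junction): ACaTACAGGActCTGCTGGAgGctGAGaAc
Bfsp2 (chr9:103426562-103426591): tCCTACcacgccCTGCTGGAcaGaGAGGAG

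Nes shares 22 and Bfsp2 20 of the 30 bases with Vim. In Bfsp1 no stretch matched better than the runner-up, so none is shown for it. After this point the coding sequence goes on for 2 codons in Bfsp2, 58 in Vim and 1553 in Nes, so that phakinin ends with its rod while nestin carries a very long tail. No 2 of the 4 genes had an identical run of 31 bases in their transcripts.

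The quantity measured is FPKM, the fragments per kilobase of gene, scaled to the mapped reads, so levels of different genes can be set side by side as far as the gene lengths used are right. Those lengths are not stated. For Vim all annotated exons together are 2.16 times as long as the main coding transcript, while this factor is at most 1.05 for the other members, so the level of Vim against the others depends on the length used. Judged by the smallest steps between low values, the libraries held an estimated 16.9 to 20.0 M reads, and crystallins accounted for 70.2% to 71.7% of all FPKM. All 10 fibre markers and all 8 epithelium markers checked were present. Fyco1 itself measured 5.40, 5.21 and 5.11 FPKM in WT and 4.61, 4.59 and 4.87 FPKM in Fyco1-/-. Its log2 fold change of -0.15 was not called (limma adjusted p = 0.273), so the RNA level alone does not check the genotype labels.

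In WT lenses the order of the levels was Bfsp1, Bfsp2, Vim and Nes, with no overlap between neighbours in this order. Bfsp1 was the 15th most abundant entry in each of the 6 libraries, and Bfsp2 ranked between 22 and 24 in WT. Vim ranked between 68 and 78 in WT, and Nes between 6736 and 7050. In the Fyco1-/- libraries the order was Bfsp1, Vim, Bfsp2 and Nes, again without overlap. Bfsp2 and Vim had changed places, and Bfsp2 now ranked between 278 and 421.

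Bfsp2, the phakinin gene, fell to 5.29% of its WT level. WT libraries held 1688, 1757 and 1764 FPKM, Fyco1-/- libraries 78.3, 81.2 and 116 FPKM. The lowest WT library was thus far above the highest Fyco1-/- library, and within Fyco1-/- library C stood above A and B. The mean was 1736 ± 42.5 FPKM in WT and 91.9 ± 21.1 FPKM in Fyco1-/- (± SD, with n = 3 libraries in each group, here and below), an 18.9-fold difference. The spread relative to the mean was 2.45% in WT and 23.0% in Fyco1-/-. The log2 fold change, taken on log2(FPKM + 0.5), was -4.26 (SE 0.16, 95% interval -4.65 to -3.86, limma adjusted p = 0.000141). This was the most negative of the 12001 tested genes, the next called being Ankrd34c at -3.06 from a WT level of 5.23 FPKM. Of the 319 tested genes with at least 100 FPKM in WT, no other changed by as much, Rpl29 coming next with a log2 fold change of -2.45. Whole-lens RNA does not by itself tell fewer cells of a type from less RNA per cell. The 10 fibre markers, Bfsp1 and Mip among them, summed to 238548 to 247190 FPKM in WT and 240487 to 246011 FPKM in Fyco1-/-, ranges that overlapped. That sum is mostly crystallins. Bfsp1 by itself stood at 104% of its WT level, while the fibre marker Lgsn went from 9.02 to 3.09 FPKM (limma adjusted p = 0.0644). Of the 10 markers 1 was called higher and 1 lower, where 8.43% of all tested genes were called. The number of fibre cells was not tested.

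The fall of Bfsp2 left it low but far from absent. Its level corresponds to an estimated 2484 to 3711 reads in each Fyco1-/- library, against 48483 to 59637 in each WT library. Summed FPKM cannot tell whether these reads cover the whole transcript, since the table shows neither exons nor alleles.

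**Figure D1:**
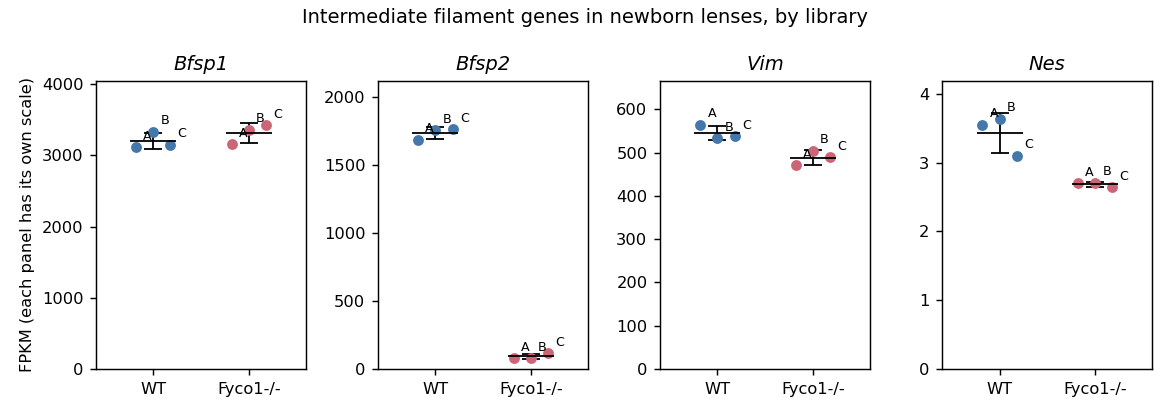
FPKM (vertical axis, starting at 0, own scale per panel) of the 4 genes in each library, with points lettered A to C and black bars for the mean ± SD of 3 libraries. Bfsp2 drops from 1736 to 91.9 FPKM, Bfsp1 overlaps between genotypes, and the 3 Fyco1-/- points of Vim and Nes lie below the 3 WT points by a far smaller margin.

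Bfsp1, whose product filensin pairs with phakinin, was not called different. WT libraries had 3117, 3333 and 3152 FPKM, and Fyco1-/- libraries had 3163, 3361 and 3421 FPKM. The groups overlapped, with means of 3200.5 ± 116 FPKM in WT and 3315 ± 135 FPKM in Fyco1-/-. Its log2 fold change came to 0.05 with an SE of 0.04 (limma adjusted p = 0.439), and its 95% interval allows between 0.979 and 1.10 times the WT level. The whole of that interval lies far above the 5.29% at which its partner gene stood.

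Vim fell slightly. Its WT values were 565, 533 and 539 FPKM, against 470.3, 505 and 489.9 FPKM for Fyco1-/-. All 3 Fyco1-/- values lay under the 3 WT values, and the mean went from 545 ± 16.8 to 488 ± 17.3 FPKM. This is a log2 fold change of -0.16 with an SE of 0.04 (limma adjusted p = 0.0252), which is 0.895 times the WT level with a 95% interval of 0.846 to 0.947. Leaving out WT A, WT C, Fyco1-/- A or Fyco1-/- C ended the call, with adjusted p of 0.104, 0.0551, 0.0591 and 0.0668. With median-of-ratios scaling, the usual scaling by the typical gene, the log2 fold change was -0.11 (adjusted p = 0.188).

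Nes, the nestin gene, was measured at a low level with values of 3.55, 3.64 and 3.10 FPKM in WT. Its values under Fyco1-/- were 2.70, 2.71 and 2.65 FPKM. The 3 Fyco1-/- values were nearly equal and below all 3 WT values, and the lowest WT library was C. The means were 3.43 ± 0.289 and 2.69 ± 0.0348 FPKM, with a log2 fold change of -0.30 (SE 0.09) that did not pass the test (limma adjusted p = 0.0843). Its 95% interval, before adjustment, ran from -0.51 to -0.09. About 344 to 467 reads stood behind each WT value and 319 to 337 behind each Fyco1-/- value, by the same estimate.

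Bfsp2 and Vim, 2 of the 4 genes, were thus called, both lower. Of all 12001 tested genes 1012 were called (8.43%), 5.02% lower and 3.42% higher. Groups did not overlap in 3 of the 4, each time with the Fyco1-/- values below. Over all tested genes the groups were apart in 29.7%, with Fyco1-/- below in 18.6% and above in 11.1%. The median log2 fold change of all tested genes was -0.04, and 39.2% of tested genes had a value at least as large in size as that of Vim. For Nes this share was 15.4%.

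**Figure D2:**
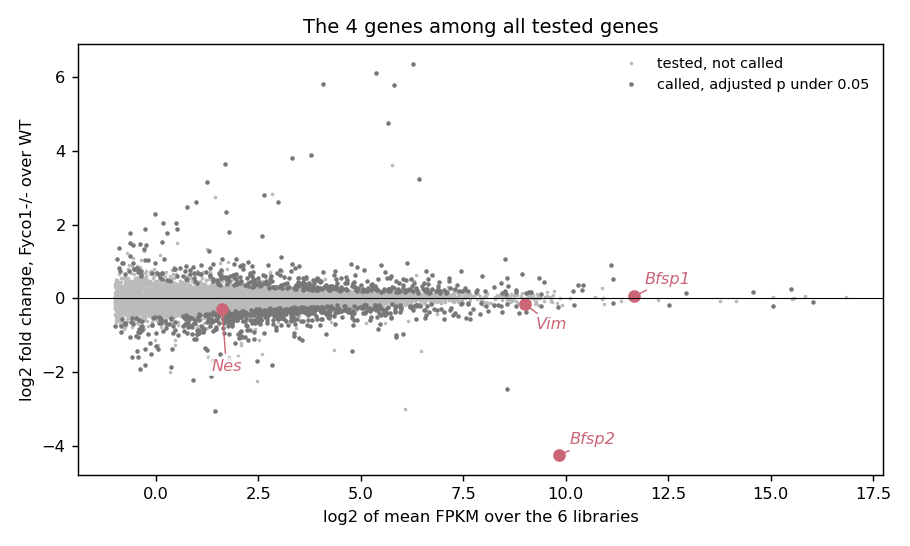
Log2 fold change of Fyco1-/- over WT (vertical axis) against the log2 of mean FPKM (horizontal axis) for the 12001 tested genes, called genes in dark grey and the 4 filament genes in red. Bfsp2 sits at -4.26, below every other point, while Bfsp1, Vim and Nes lie within the main cloud.

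In the authors' deposited table, made with DESeq2, Bfsp2 has a log2 fold change of -2.88 and an adjusted p of 7.71e-77. The log2 ratio of the means in the authors' deposited table is -4.24, so the deposited fold change is smaller in size than the ratio of levels. Vim stands at -0.11 (adjusted p = 0.103), Nes at -0.27 (adjusted p = 0.0821) and Bfsp1 at 0.10 (adjusted p = 0.194) in the authors' deposited table. Of the 4 genes, Bfsp2 alone is under 0.05 there, so the 2 methods differ on Vim.

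Ratios between genes of 1 library do not depend on how that library was scaled. There were 1.85, 1.90 and 1.79 Bfsp1 units of FPKM for each unit of Bfsp2 in WT. In Fyco1-/- A, B and C there were 40.4, 41.4 and 29.4. Vim stood at 0.335, 0.303 and 0.305 times Bfsp2 in WT, and at 6.01, 6.22 and 4.22 times Bfsp2 in Fyco1-/-. Vim also moved against Bfsp1, from 0.181, 0.160 and 0.171 times its level in WT to 0.149, 0.150 and 0.143 times in Fyco1-/-. All 6 pairs of the 4 genes were compared on log2 ratios. The groups were apart in 5 pairs, each with an exact two-sided permutation p = 0.1, the smallest that 3 against 3 libraries allow (0.12 after Benjamini-Hochberg adjustment over the 6 pairs), so none can pass 0.05. The exception was Vim against Nes, where the log2 ratio differed by 0.14 between genotypes (exact permutation p = 0.2) and the groups overlapped. Bfsp2 made up 31.4%, 31.2% and 32.3% of the summed FPKM of the 4 genes in WT and 2.11%, 2.06% and 2.88% in Fyco1-/-. The sum itself was 5373 to 5626 FPKM in WT and 3714 to 4029 FPKM in Fyco1-/-.

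**Figure D3:**
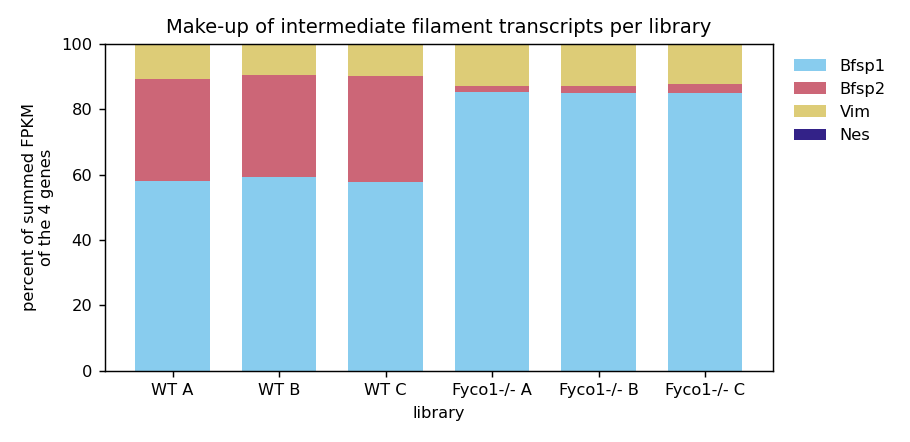
Share of each gene in the summed FPKM of the 4 genes (vertical axis, percent) in each of the 6 libraries (horizontal axis). The Bfsp2 band goes from 31.2% to 32.3% in WT to 2.06% to 2.88% in Fyco1-/-, Bfsp1 then holds 84.9% to 85.2%, and the Nes band, at most 0.0728%, is too thin to see.

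The Bfsp2 gene shares its place with genes of the opposite strand. Its coding transcript has 7 exons and 1662 bases over a gene of 55.5 kb. One of them, exon 6, coincides over 91.0% of its 221 bases with exons of 5830418P13Rik, an antisense RNA gene, and the whole exon is coding. The exon is shown because reads from these bases could belong to either gene if strand was not used in the counting, which is not stated. It lies at chr9:103426557-103426777 and is printed 5′ to 3′ on the Bfsp2 (minus) strand from GENCODE release M21, with the shared bases in capitals:

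Bfsp2 exon 6: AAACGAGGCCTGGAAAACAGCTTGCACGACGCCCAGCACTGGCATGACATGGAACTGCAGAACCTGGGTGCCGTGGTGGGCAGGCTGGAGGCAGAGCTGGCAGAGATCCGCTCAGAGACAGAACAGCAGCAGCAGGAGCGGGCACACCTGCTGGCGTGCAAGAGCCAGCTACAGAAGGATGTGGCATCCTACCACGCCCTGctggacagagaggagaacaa

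The rod end shown above begins inside the shared bases. Of the 1666 different runs of 31 bases in Bfsp2 transcripts, 175 (10.5%) also occur, on the opposite strand, in 5830418P13Rik, and no other gene shared one. The antisense gene moved the other way. WT libraries had 6.66, 8.78 and 7.17 FPKM and Fyco1-/- libraries 14.98, 12.7 and 13.2 FPKM, with no overlap. Its log2 fold change of 0.82 had an SE of 0.10 (limma adjusted p = 0.00105), and it kept its call and direction under all 16 alternatives. At 7.54 FPKM on average its WT level was small beside the 1736 FPKM of Bfsp2.

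A further antisense gene, Gm16252, runs across the start of Bfsp2 and has 2 of its 5 exon blocks inside the first intron of Bfsp2, with no exon bases in common; it was looked at after its values were seen. It went from 0.205, 0.232 and 0.268 FPKM in WT to 3.28, 2.21 and 2.27 FPKM (log2 fold change 2.05, SE 0.16, limma adjusted p = 4.97e-05). At such low levels the log2 value depends on the pseudocount: it was 2.99 with 0.1 FPKM and 1.53 with 1 FPKM in place of 0.5, and the ratio of mean FPKM was 11.01. An estimated 6 to 9 reads stand behind each WT value and 79 to 113 behind each Fyco1-/- value. Both antisense genes thus rose where Bfsp2 fell. The nearest tested protein-coding genes rose as well: Cdv3, 59.1 kb away, from 72.7 ± 3.76 to 121 ± 2.601 FPKM (limma adjusted p = 1.06e-05), and Tmem108, 2.53 kb from the start of Bfsp2, from 2.25 ± 0.104 to 3.401 ± 0.356 FPKM (limma adjusted p = 0.0143, but 0.0532 without WT A). The span of Tmem108 (chr9:103482947-103761837) overlaps that of Gm16252 (chr9:103472084-103493249), and whether these 2 genes share reads was not tested. Whether the rises at these neighbours and the fall of Bfsp2 belong together was not tested.

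**Figure D4:**
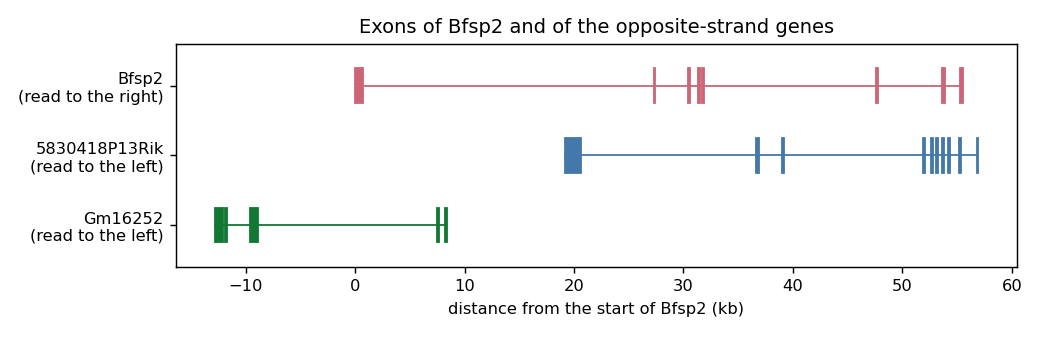
Exons (boxes, all annotated transcripts together) of Bfsp2 and of the opposite-strand genes 5830418P13Rik and Gm16252, against the distance in kb from the start of Bfsp2 (horizontal axis), with Bfsp2 read to the right and the others to the left. One exon of Bfsp2, near its far end, lies under exons of 5830418P13Rik, and Gm16252 straddles the start.

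Most of the other filament genes listed were scarce in these lenses, though 1 of them, Synm, stood above Nes in every library. Of 28 other cytoplasmic intermediate filament genes listed, 25 are in the table, and 17 of those stayed under 1 FPKM in every library. The desmin gene Des and 4 of 15 keratins reached the level needed for testing, but none of these 15 passed 3.67 FPKM in any library. Synm, which encodes the large linker filament protein synemin, was the most abundant: 54.8, 52.2 and 53.1 FPKM in WT against 59.9, 52.4 and 56.6 FPKM (log2 fold change 0.08, limma adjusted p = 0.433). All 25 together summed to 67.7 to 74.7 FPKM in WT and 71.9 to 77.2 FPKM in Fyco1-/-. They are 1.23% to 1.37% of the summed FPKM of these 25 and the 4 members in WT and 1.79% to 2.04% in Fyco1-/-.

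Of the 8 tested, 1 rose and none fell (12.5%, near the 8.43% called over all tested genes). That gene was Gfap, which encodes the filament protein of astrocytes and is also made at low levels in lens: 5.08, 4.08 and 3.45 FPKM in WT against 5.73, 6.92 and 5.90 FPKM (log2 fold change 0.52, limma adjusted p = 0.0352). Its call was lost without WT B (adjusted p = 0.102), WT C (0.0817) or any Fyco1-/- library (0.0510 to 0.117). In these fits the log2 fold change of Gfap was 0.40 to 0.57. Des, the muscle filament gene, had 0.406, 1.63 and 0.379 FPKM in WT against 0.193, 0.338 and 0.348 FPKM (limma adjusted p = 0.295). WT B thus stood far above the other libraries. The 5 muscle markers beside it summed to 5.07 to 31.6 FPKM in WT (median 5.81) and 1.599 to 3.09 FPKM in Fyco1-/-. Their part in the level of Des was not tested. The 8 had a median log2 fold change of 0.13, against -0.04 over all tested genes. Krt19, a keratin of simple epithelia, came nearest among the others, with means of 1.27 FPKM in WT against 0.618 FPKM (log2 fold change -0.64, limma adjusted p = 0.0521).

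**Figure D5:**
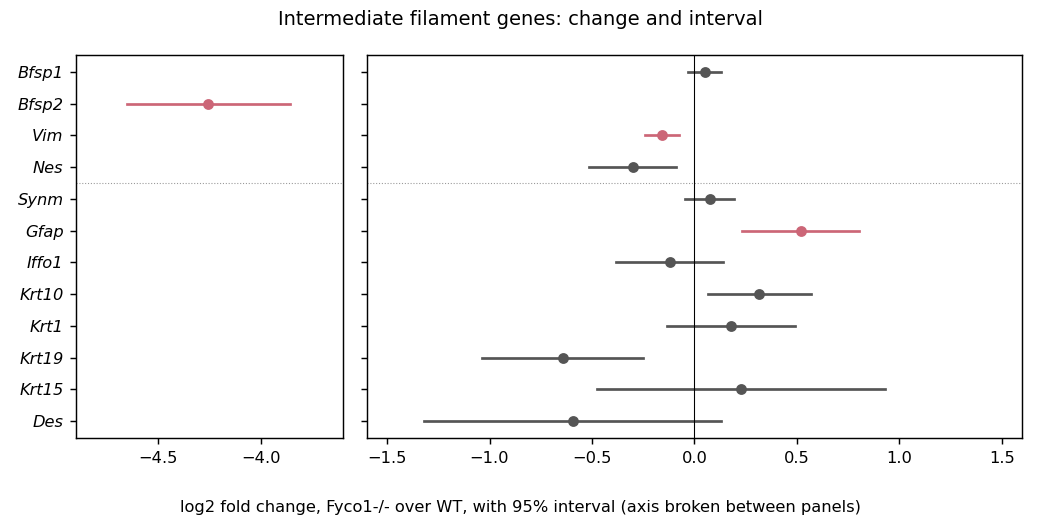
Log2 fold change of Fyco1-/- over WT with its 95% interval (horizontal axis, broken between the panels) for the 4 genes above the dotted line and the 8 other tested filament genes below it, red where called. Bfsp2 stands alone near -4.26, and Vim and Gfap are called on opposite sides of 0.

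Genes that work with these filaments were taken from lists. Lamins are the nuclear relatives of the family, and with envelope proteins that tie filaments to the nucleus none of 9 tested genes was called, where 8.43% of all tested genes were. Their median log2 fold change was -0.17, and the B-type lamin gene Lmnb1 went from 8.28 ± 1.53 to 6.47 ± 0.298 FPKM (limma adjusted p = 0.118, but 0.0477 without WT C). Of 7 tested plakin and desmosome linkers, which anchor filaments to membranes and to other fibres of the cytoskeleton, only Pkp4 fell, from 22.7 ± 0.212 to 19.8 ± 0.449 FPKM (limma adjusted p = 0.0397). That is 14.3% of the 7, from 1 gene, against 8.43% of all tested genes. Leaving out any 1 of the 6 libraries ended that call (adjusted p = 0.0767 to 0.121), as did median-of-ratios scaling (0.118). The log2 fold change of Pkp4 without 1 library was -0.20 to -0.18, against -0.19 with all 6. Plec, the gene of the plakin plectin, had means of 22.8 FPKM in WT against 25.8 FPKM (limma adjusted p = 0.104).

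A list of 19 membrane, chaperone and membrane-skeleton genes of fibre cells was tested, since beaded filaments lie close to the fibre membrane. Of these 3 rose and 4 fell (36.8%, against 8.43% of all tested genes), in a list put together with earlier results of these data known. Mip, the gene of the fibre water channel that binds the beaded filament proteins, had means of 1923 FPKM in WT against 1880 FPKM (limma adjusted p = 0.541). Prx, which encodes the scaffold protein periaxin of the fibre membrane skeleton, rose from 31.3 ± 0.671 to 59.1 ± 1.84 FPKM (limma adjusted p = 2.21e-06). The spectrin gene Sptb fell (log2 fold change -0.996, limma adjusted p = 9.32e-07), with every Fyco1-/- value below WT. The median log2 fold change of the 19 was -0.03.

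Of 16 kinase and phosphatase genes whose products act on filament proteins, 1 fell and none rose (6.25%, below the 8.43% of all tested genes). It was the mitotic kinase gene Aurkb, from 2.95 ± 0.654 to 1.46 ± 0.237 FPKM (limma adjusted p = 0.0107). Of 12 genes of filament proteolysis, which include the calpains that cleave filensin and vimentin, 1 rose and 1 fell (16.7%, against 8.43%). Capn1 fell from 4.11 ± 0.496 to 2.92 ± 0.106 FPKM (limma adjusted p = 0.0286), a call lost without WT B (0.107), WT C (0.0512) or any Fyco1-/- library (0.0543 to 0.0870). In these fits its log2 fold change was -0.45 to -0.34, against -0.43 with all libraries. Capn3, the abundant calpain gene of lens, had means of 463 FPKM in WT against 514 FPKM (limma adjusted p = 0.134).

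Of 13 transcription factor genes of lens fibres and epithelium, 1 rose and 4 fell (38.5%, against 8.43% of all tested genes). Their median log2 fold change was -0.18, against -0.04 over all tested genes, and this list too was put together with earlier results of these data known. Pitx3, a homeobox gene needed for lens development, fell from 85.3 ± 2.47 to 69.0 ± 3.59 FPKM (limma adjusted p = 0.00353), a call kept in all 16 alternatives. Hsf4, which encodes a heat shock factor of fibre cells, rose from 143, 145 and 146 FPKM in WT to 175, 167 and 171 FPKM (limma adjusted p = 0.00235). Prox1, a homeobox gene needed for fibre elongation, fell from 88.03 ± 0.951 to 77.5 ± 0.957 FPKM (limma adjusted p = 0.0131). This call was gone when WT A was left out (adjusted p = 0.0579) and with median-of-ratios scaling (0.0992).

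Markers of the cells that could carry Vim and Nes were set beside them. The 8 lens epithelium markers summed to 548 to 606 FPKM in WT and 459 to 484 FPKM in Fyco1-/-, with 4 of 8 called lower (5.02% of all tested genes were) and none higher, and Sfrp1 the most abundant. Vim was lower in the same libraries, and the part of the epithelium in this was not tested. The 8 markers of vascular endothelium, whose cells express both Vim and Nes, summed to 31.6 to 42.8 FPKM in WT and 29.9 to 35.3 FPKM in Fyco1-/-. The 7 of pericytes and smooth muscle summed to 33.0 to 43.4 and 34.0 to 34.7 FPKM. Both lists overlapped between genotypes, with no marker called, and their part in the level of Nes was not tested. The 10 neural retina markers summed to 17.0 to 18.4 FPKM in WT and 14.5 to 16.5 FPKM in Fyco1-/-, mostly Sox2, which lens also expresses. The 5 glial markers, among them Gfap, summed to 9.87 to 12.2 and 12.3 to 13.6 FPKM. Mesenchyme markers summed to at most 5.36 FPKM and pigment epithelium markers to at most 1.68 FPKM in any library, with Lum, Rpe65 and Tyr under 0.1 FPKM in every library. The 5 measured markers of corneal and surface epithelium summed to 0.771 to 2.21 FPKM in WT and 0.984 to 2.42 FPKM in Fyco1-/-. Krt15 was the most abundant of them at 0.352 to 1.49 FPKM, and only Krt13 was under 0.1 FPKM in every library. The 7 macrophage markers summed to 3.74 to 7.34 FPKM in WT and 2.80 to 4.34 FPKM in Fyco1-/-. The 6 erythroid markers, set beside these for blood, summed to 81.4 to 195 FPKM in WT and 102 to 241 FPKM in Fyco1-/-. Both lists overlapped between genotypes, with no marker called.

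The genes most like each member across the 6 libraries were ranked by Pearson's r on log2(FPKM + 0.5) among 10900 tested genes with standard names. For Bfsp2 they were Eif3j1 (r = 0.998), a translation initiation factor gene, Rpl29 (r = 0.998), a ribosomal protein gene that also lies on chromosome 9, and Mthfd1l (r = 0.996), a mitochondrial folate enzyme gene. Vim was closest to Cdh2 (r = 0.997), the gene of the N-cadherin of lens cell junctions, Atrx (r = 0.996) and Gsta4 (r = 0.994). Nes was closest to Syt14 (r = 0.998), the maintenance DNA methyltransferase gene Dnmt1 (r = 0.995) and Sort1 (r = 0.995), and Bfsp1 to Rsad1 (r = 0.981), Toe1 (r = 0.9748) and Skiv2l (r = 0.974). Gsta4 and Dnmt1 lie on chromosome 9 too. All the other genes named here as most alike lie on other chromosomes, among them the closest to each member. Whether position on a chromosome plays a part in the likeness was not tested. The r values are a description over 6 libraries that fall in 2 genotypes. In all, 239 genes passed r = 0.95 with Bfsp2, 221 with Nes, 112 with Vim and 6 with Bfsp1.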

How the data were processed

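The deposited table holds FPKM per gene and library. Per the labels and the series' design text, the authors used STAR 2.5 for aligning paired reads (GRCm38/mm10) and HTSeq 0.6.1 for counting, and computed FPKM; annotation, strand handling and gene lengths are not stated. The authors' deposited log2 fold changes and p-values come from DESeq2. Positions came from GENCODE M21, matched by symbol for 93.2% of entries. Depth was estimated from the steps between low values, 49.3% to 58.1% of which fell within 0.05 of a whole read. All annotated exons of a gene together were taken as its length here. The estimated read numbers of single genes rest on the same lengths.

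Genes with a mean of at least 0.5 FPKM entered a two-sided limma test (3.58.1, R 4.3.3) of genotype on log2(FPKM + 0.5); moderation was robust and followed the mean-variance trend. A gene was called, and is said to rise or fall, at a Benjamini-Hochberg adjusted p under 0.05 over all tested genes. Alternatives were other pseudocounts, low-value filters, moderation and scalings, the library letter as a block, and each library left out. The steps were tested on simulated data. There 15.6% of 1.25-fold, 58% of 1.5-fold and 87.2% of 2-fold changes were called in the right direction. A gene that was not called may therefore still have changed by a small factor. The p-values measure the spread between these pools of lenses.

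The members and lists were chosen with earlier results of these data known. Named genes are the members, Fyco1, up to 4 called genes of each list by p (or the 2 most abundant), the 3 most like each member, and genes overlapping a member. Synm, Krt19, Des, Ankrd34c, Plec, Mip, Lgsn, Capn3, Gm16252 and the neighbours of Bfsp2 were added after their values were seen. Not every gene the rule gives is described, and some called list genes are not reported here.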

Additional observations from a re-analysis of the deposited data

How the results depend on the processing

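For each gene 16 alternatives were run, 6 of which left out 1 library. Bfsp2 kept its call and direction in all 16, with log2 fold changes of -4.44 to -4.15 and adjusted p up to 0.00204. Bfsp1 (log2 0.00 to 0.10) and Nes (-0.36 to -0.24) were called in none. Vim stayed negative in all 16 and was called in 9. It lost its call with no filter on low values (-0.16, adjusted p = 0.0661) and with median-of-ratios scaling (-0.11), and leaving out 1 library gave -0.18 to -0.13. With the replicate block the log2 fold change of Vim was -0.16 (adjusted p = 0.0732). The letters are not stated to pair the libraries. The deviations of same-lettered libraries correlated at -0.03, 0.03 and 0.03. With 3 libraries per genotype this cannot tell whether the letters mark a shared litter, day or batch. With the block 929 genes were called, against 1012 without it.

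Calls over all genes numbered 568 with no filter on low values and 611 to 870 with 1 library left out. The count was 614 without WT A and 611 without WT B. It was 670 without Fyco1-/- B and 641 without Fyco1-/- C. The cause was not tested. The share of calls that were higher was 40.5%, and 56.5% with median-of-ratios scaling. The 6 ratios between members kept their direction with other pseudocounts and without any 1 library.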
